A study of Mus musculus with 4 samples.

Results

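The genes described were 10 receptor tyrosine kinases, Met, Egfr, Erbb2, Erbb3, Pdgfra, Pdgfrb, Fgfr1, Axl, Igf1r and Epha2, taken by symbol from a table of 21090 mouse genes. All 10 were in the table, and 9 of them were among the 10871 genes with a mean of at least 1 RPKM (the reads of a gene divided by its length in kilobases and by the library's read total) that entered the test. Erbb3 was below that level. The samples were 4 mammary tumor cell lines, each sequenced as 1 RNA-seq library. The controls were the parental cells and vector control cells. The knockouts were cells edited at S100a4 in exon 3 or in exon 2, both made with a lentivirus carrying Cas9 and a guide RNA followed by selection in puromycin. The study traces the lines to the primary mammary tumor of a mouse that also had lung metastases and carried Pik3caH1047R and Trp53R270H with Cre recombinase under the MMTV promoter, so the controls carried both oncogenic alleles too. The titles give cell number 307 to 3 libraries but 308 to the exon 2 knockout, although the study describes 1 starting line, and a difference between the cells named 307 and 308 cannot be told apart from the exon that was edited. No source says that any line was a single clone. With 1 library per line, p-values rested only on the spread between these 4 lines. The fit by limma also drew each gene's variance toward a trend over all tested genes. Its SEs and p-values therefore do not give the spread of that gene alone.

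Receptor tyrosine kinases span the plasma membrane and carry a kinase domain inside the cell. Binding of a ligand brings receptors together, the kinases phosphorylate each other, and adaptor proteins recruited to the phosphotyrosines start the Ras-MAPK and PI3K pathways. Feedback inhibitors then dampen the signal, and surface proteases can cut receptors and ligands from the membrane. In the mammary gland Erbb2, Erbb3 and Met are found mainly in the epithelium and Egfr acts in both epithelium and stroma, while Pdgfra, Pdgfrb, Fgfr1 and Axl are prominent in mesenchymal cells or in tumor cells with mesenchymal features.

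The libraries held 14616236 to 20391873 reads in genes, recovered from the RPKM steps. S100a4, the edited gene, read 3576 RPKM in parental cells and 4741 in vector control cells, against 1136 in exon 3 knockout cells and 1105 in exon 2 knockout cells. Of 8 epithelial markers only Krt8 and Krt18 reached a mean of 1 RPKM, and Epcam, Cdh1, Krt5 and Krt14 did not. All 7 mesenchymal markers did, with Vim at 1362 to 2418 RPKM. The summed epithelial markers ran from 34.4 RPKM in vector control cells to 130 in parental cells, and the summed mesenchymal markers from 2176 RPKM in exon 3 knockout cells to 4601 in parental cells. Of the 6 leukocyte markers found, Cd68 alone reached a mean of 1 RPKM, and it was 4.92 and 3.36 RPKM in the controls and 11.5 and 13.2 in the knockouts. None of 5 endothelial markers did.

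Axl (chr7:25757273-25788705, minus strand in GRCm38), the receptor of the ligand Gas6, had the highest level of the 10 genes in every library. Its level was 590.6 RPKM in parental cells, 295 in vector control cells, 409 in exon 3 knockout cells and 496 in exon 2 knockout cells. The knockouts therefore lay between the controls. Axl alone made up 56.5% to 65.7% of the summed RPKM of the 10 genes. Fgfr1 (chr8:25513654-25575718, plus strand), a receptor of fibroblast growth factors, came next, then Pdgfrb, a receptor of platelet-derived growth factors, and Epha2 (chr4:141301240-141329384, plus strand), a receptor of ephrin-A ligands, in the same order in all 4 libraries. Together with Axl they took 89.8% to 94.5% of the sum. RPKM is scaled by gene length, but the gene models behind it are not given. Comparisons of level between genes are therefore approximate.

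**Figure D1:**
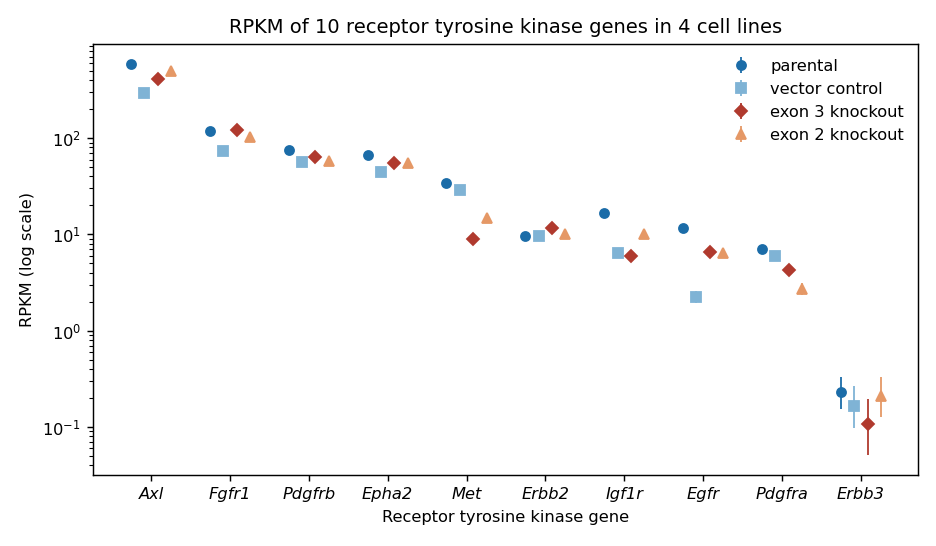
RPKM on a log axis of 10 receptor tyrosine kinase genes, ordered by mean, in parental cells, the vector control, the exon 3 knockout and the exon 2 knockout. Each point is 1 library and bars are 95% Poisson intervals, which cover counting error only. Axl lies at 295 to 590.6 RPKM and Erbb3 at 0.106 to 0.231, and the 2 knockouts are below both controls for Met and Pdgfra.

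In the order of the means, Axl did not overlap Fgfr1 and Epha2 did not overlap Met over the 4 libraries. Pdgfra likewise stayed above Erbb3. Fgfr1 (73.6 to 121 RPKM), Pdgfrb (56.8 to 76.1) and Epha2 (44.1 to 66.4) each overlapped the neighbour in the order. The ranges of Met (9.02 to 34.4), Erbb2 (9.52 to 11.7), Igf1r (5.91 to 16.5), Egfr (2.23 to 11.7) and Pdgfra (2.71 to 7.13) also overlapped from each gene to the next. Within this middle group the order changed between libraries. Met led it in 3 libraries and stood behind Erbb2 in exon 3 knockout cells, and Egfr stood above Erbb2 and Pdgfra in parental cells but below both in vector control cells.

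Met encodes the receptor of hepatocyte growth factor, a ligand that drives scattering and invasive growth of epithelial cells. The gene lies on the plus strand at chr6:17463800-17573980 (GRCm38). The study named Met among genes of the epithelial-mesenchymal transition that were lower in its knockout lines, and since it chose the gene on these libraries, the values below are not independent evidence of that direction. Its level was 34.4 RPKM in parental cells, 28.9 in vector control cells, 9.02 in exon 3 knockout cells and 14.7 in exon 2 knockout cells. Both knockouts lay below both controls, and no counting interval of a knockout (8.44 to 9.64 and 13.9 to 15.5 RPKM) reached that of a control (33.4 to 35.4 and 27.8 to 29.9).

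The mean of Met was 31.6 ± 3.91 RPKM (SD, n = 2) over the controls and 11.9 ± 4.00 (SD, n = 2) over the knockouts, or 37.5% of the control mean. The difference was -1.37 (SE 0.336) on the log2(RPKM + 1) scale, with an adjusted p of 0.105 by limma with Benjamini-Hochberg adjustment, so Met did not pass the threshold of 0.05. Met was the only member whose unadjusted p fell below 0.05 (0.00169 by limma across all genes), where 13.8% of tested genes were lower and 5.32% higher at that level. An exact two-sided permutation test of 2 against 2 libraries cannot go below 0.333, the value Met had. The adjusted p of Met was 0.0258 with limma's robust prior. That setting was more permissive for all genes, since it called 285 of 10871, against 2 in the main fit. The adjusted p of Met was 0.300 after correction for coding GC content and length. The difference of Met stayed negative without the vector control and without the exon 3 knockout. That sign was fixed in advance, since both knockouts lay below both controls. Each of those fits left 1 library in a group, so their p-values are not given here.

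Across the 4 pairs of a knockout with a control, Met differed by -1.82 and -1.58 in exon 3 knockout cells and by -1.17 and -0.93 in exon 2 knockout cells, against the parental line and the vector control respectively (log2 scale). So 3 of the 4 pairs were at least 2-fold apart. The exon 2 knockout was 1.63-fold above the exon 3 knockout, a gap of 0.65 on the log2 scale, and the controls were 0.25 apart. Among the 10871 genes tested, Met was number 245 counted from the most lowered, and its difference was larger in size than that of 97.4% of them.

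The coding sequence of Met is 46.4% GC, and changes across the table moved with GC content. The median change was -0.68 in the eighth of genes with the lowest coding GC content and 0.21 in that with the highest, and Spearman's rho was 0.485 across 10773 genes, which share the same 4 libraries and are not independent replicates. In the eighth that held Met the median was -0.45. After correction for coding GC content and length the difference of Met was -0.79 (SE 0.278), and that of Pdgfra was -0.55. The part that GC content has in the library differences was not tested.

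**Figure D2:**
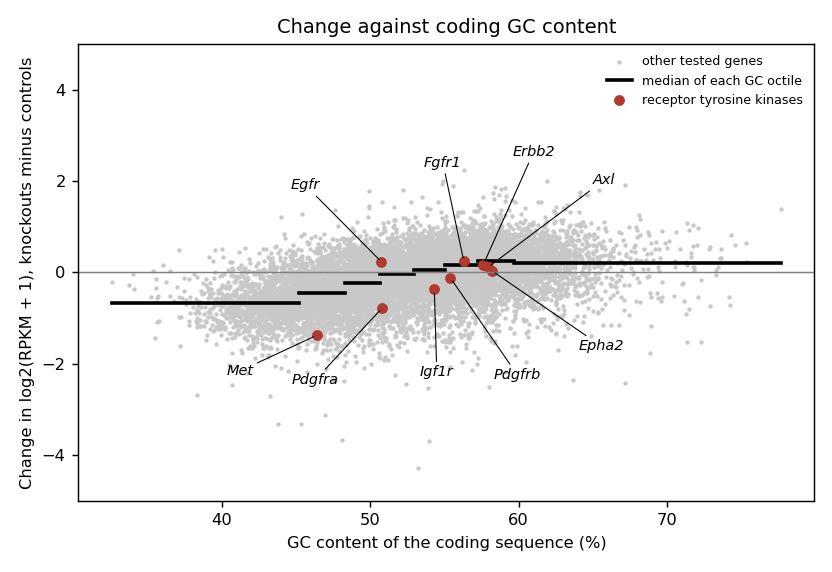
Change in log2(RPKM + 1), knockouts minus controls, against the GC content of the coding sequence in percent. Grey points are tested genes, black lines the median of each eighth of genes by GC content and red points the 9 receptor tyrosine kinases tested; Met, at 46.4% GC, lies at -1.37 where the local median is -0.45.

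The promoter of Met is shown because Met differed most of the members between the groups. The RefSeq promoter (GRCm38.p6, 250 bases before the RefSeq start and 50 from it on) was searched on both strands for TGANTCA (AP-1), GGGCGG (GC box), CACGTG (E-box) and TATAAA, letters that were chosen after the data had been seen. For Met that start is position 17463957, inside the span given above, which begins with an earlier transcript start. Promoters were found for 7 of the 10 members. These letters occur in 7.81%, 35.7%, 7.15% and 13.6% of 32851 promoters, respectively. Met held 1 AP-1 match at chr6:17463892-17463921, 1 E-box match at chr6:17463819-17463848 and 3 GC box matches, of which the one nearest the RefSeq start lies at chr6:17463925-17463954. Capitals mark the match named on each line, and each 30-base window is written on the plus strand. The E-box window also holds another of the 3 GC box matches, left in lower case.
Met AP-1: tgttgcccggcTGAGTCAcgggccgggcag
Met E-box: gggacgaacagaCACGTGctggggcgggta
Met GC box: gcgtgtgggaagGGGCGGagcagtccgagg
A match describes the letters only, and no binding was measured. The promoters of Pdgfra and Erbb2, the other members whose groups did not overlap, held none of these letters. GC box matches also lay in the promoters of Axl (2), Igf1r (2), Egfr (1) and Epha2 (1), whose groups overlapped, so they were not particular to Met.

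The genes whose pattern over the 4 libraries was most like that of Met were found by the distance between centred log2 values. The nearest were Mef2a (0.129), Ireb2 (0.139), Med13 (0.150), Akap11 (0.155) and Kcnk2 (0.168), with changes of -1.44 to -1.25. Their coding GC content was 42.3% to 52.1%. Of the members, Pdgfra was nearest to Met at a distance of 1.01 and rank 2290 among all tested genes, and Egfr was farthest at 2.08.

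Pdgfra (chr5:75152292-75198215, plus strand), a receptor of platelet-derived growth factors, was the other member with both knockouts below both controls. Its level was 7.13 RPKM in parental cells, 6.02 in vector control cells, 4.25 in exon 3 knockout cells and 2.71 in exon 2 knockout cells, so here the exon 2 knockout was the lowest. The knockout mean was 52.9% of the control mean, and the difference was -0.78 (SE 0.356, adjusted p = 0.263 by limma). Pdgfra rested on 199 to 728 reads a library. Pdgfrb, on the same scale, read 76.1, 56.8, 64.0 and 57.4 RPKM in the order parental line, vector control, exon 3 knockout, exon 2 knockout. It was 9.43 to 10.7 times the level of Pdgfra in the controls and 15.1 to 21.2 times in the knockouts, and its own difference was -0.12 (SE 0.304).

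Erbb2 (chr11:98412470-98437716, plus strand), the ErbB receptor that has no known ligand of its own, was the only member with both knockouts above both controls. It read 9.61 RPKM in parental cells, 9.52 in vector control cells, 11.7 in exon 3 knockout cells and 10.1 in exon 2 knockout cells. The counting interval of the exon 2 knockout (9.44 to 10.8 RPKM) overlapped those of the parental line (9.06 to 10.2) and the vector control (8.91 to 10.2). The difference was 0.17 (SE 0.318, adjusted p = 0.801 by limma).

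In all, 2 of the 10 members were lower without overlap, where 31.2% of tested genes were, and 1 was higher without overlap, where 21.9% were. These counts turned on single libraries: 8 members were lower without the vector control (41.4% of tested genes) and 4 without the exon 2 knockout (42.9%). Erbb3, which was not among the tested genes, is in both of these counts. Without the parental line 6 were higher (31.7%), and without the exon 2 knockout 2 were (33.2%). At an adjusted p under 0.05, 0 of the 10 members were called, and 2 genes were over all tested, or 0.0184%. No member was at least 2-fold apart in all 4 pairs, against 1.73% of tested genes lower and 0.267% higher. The median difference was -0.0082 over the 10 members and 0.034 over the 9 tested, beside -0.078 over all tested genes. Both other scalings tried moved the median of all genes by over 0.1, to 0.024 and 0.041.

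**Figure D3:**
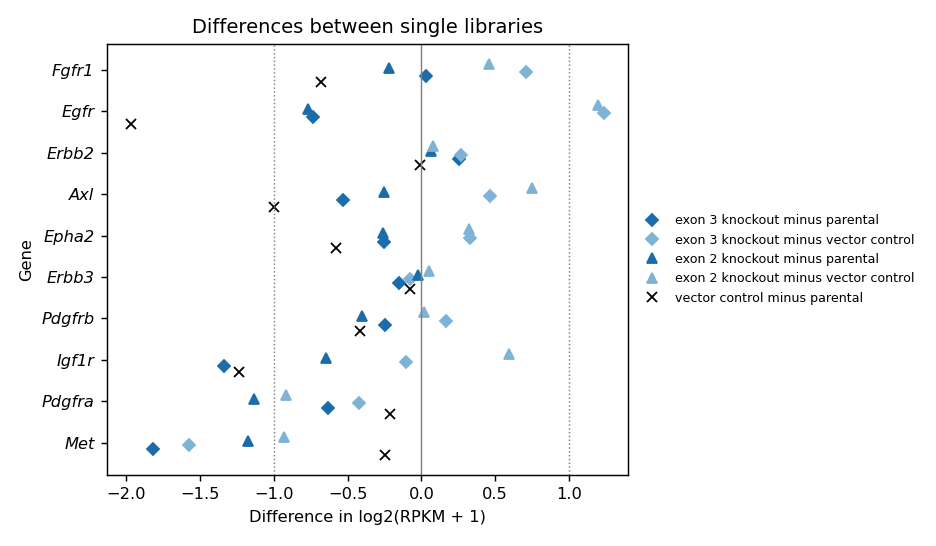
Differences in log2(RPKM + 1) between single libraries for each receptor tyrosine kinase gene, with each knockout set against each control and a cross for the vector control minus the parental line. Dotted lines mark 2-fold. All 4 pairs of Met lie below 0, from -1.82 to -0.93, while Egfr has pairs on both sides of 0 and its controls are 1.97 apart.

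For most members the controls differed from each other by more than the groups did. The controls were further apart than the group means in 7 of the 10 genes, where that held for 47.1% of tested genes. The knockouts were further apart than the groups in 6, but the share of tested genes was not computed for this count. The vector control was below the parental line in 10 of 10 members, and so in all 9 of those tested, beside 36.6% of tested genes. For Erbb2 (9.52 against 9.61 RPKM) and Erbb3 the counting intervals of the controls overlapped. The parental line was the highest library in 8 members, Erbb3 among them, beside 20.9%. The median difference of the vector control from the parental line was -0.50 for the members and 0.16 for all tested genes.

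Egfr (chr11:16752203-16918158, plus strand), the receptor of epidermal growth factor, differed most between the controls. It read 11.7 RPKM in parental cells and 2.23 in vector control cells, a 5.23-fold gap, with 1338 and 208 reads. The knockouts read 6.62 and 6.42 RPKM and lay between the controls. Set against the parental line they differed by -0.73 and -0.77 (log2 scale), and set against the vector control by 1.24 and 1.20. The group difference was 0.23 (SE 0.530, adjusted p = 0.834 by limma), and its sign turned on the control used, at -0.75 with the parental line alone and 1.22 with the vector control alone.

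Igf1r (chr7:67952827-68233668, plus strand), the receptor of insulin-like growth factor, read 16.5 RPKM in parental cells, 6.43 in vector control cells, 5.91 in exon 3 knockout cells and 10.2 in exon 2 knockout cells. The parental line was 2.57-fold above the vector control, and the exon 2 knockout 1.73-fold above the exon 3 knockout. The group difference was -0.37 (SE 0.437, adjusted p = 0.657 by limma), and it was 0.24 without the parental line. Egfr and Igf1r were the 2 members at least 2-fold lower in vector control cells on the log2(RPKM + 1) scale, where 5.19% of tested genes were that much lower and 3.34% that much higher.

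For Axl the vector control differed from the parental line by -0.998 on that scale, just short of the limit. Its group difference was 0.11 (SE 0.361, adjusted p = 0.891 by limma), and was negative under quantile normalization and after the GC correction. Fgfr1 read 119 RPKM in parental cells, 73.6 in vector control cells, 121 in exon 3 knockout cells and 102 in exon 2 knockout cells, with the vector control apart from the other 3 libraries. Epha2 read 66.4, 44.1, 55.6 and 55.4 RPKM in the same order, so both knockouts lay between the controls. The group differences were 0.25 (SE 0.325) for Fgfr1 and 0.034 (SE 0.315) for Epha2, and the latter was negative under quantile normalization and after the GC correction. With the parental line as the only control the differences were -0.39 for Axl, -0.094 for Fgfr1 and -0.26 for Epha2. No member differed by 2-fold between the knockouts, where 4.99% of tested genes did.

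Erbb3 (chr10:128567523-128589652, minus strand), the ErbB receptor with an impaired kinase that pairs with Erbb2, had the lowest level in every library. It read 0.231 RPKM in parental cells, 0.167 in vector control cells, 0.106 in exon 3 knockout cells and 0.210 in exon 2 knockout cells, from 10 to 29 reads. The counting intervals of all 4 libraries overlapped, and no difference was detectable at this depth.

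The controls also differed in epithelial and mesenchymal markers. Krt8 and Krt18 were both lower in vector control cells, by -1.30 and -3.11 (log2 scale). Of the 7 mesenchymal markers 5 were lower there, with a median of -0.27, and they ranged from -6.40 for Col1a1 to 0.26 for Zeb2. Between the groups, 6 of the 7 had a lower mean in the knockouts, with a median of -0.54, beside -0.078 for all tested genes. Without overlap 4 were lower, where 31.2% of tested genes were. The part of these differences in the receptor levels was not tested. In bulk RNA, fewer cells that express a gene and less RNA per cell cannot be told apart.

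Other genes of the pathway were taken as lists, chosen with results of these data known. No gene in them was called at an adjusted p under 0.05 by limma. Over all tested genes, 31.2% were lower without overlap and 21.9% higher. The share of tested genes with a lower group mean was not computed, so such counts in the lists have no background. Of 48 other receptor tyrosine kinases, 17 had a mean of at least 1 RPKM. Of these, 8 had a lower and 9 a higher group mean in the knockouts. Without overlap 5 were lower and 4 higher. In vector control cells 13 of the 17 were lower than in parental cells, where 36.6% of tested genes were. Ddr2, a collagen receptor, was the only one at least 2-fold lower in all 4 pairs, where 1.73% of tested genes were. Its level was 99.6 and 70.5 RPKM in parental and vector control cells. It was 32.8 and 30.8 in exon 3 and exon 2 knockout cells (-1.37, SE 0.309, adjusted p = 0.102 by limma). The other most abundant ones were Ryk, a Wnt receptor, with a difference of -0.088, and Ddr1, a collagen receptor, with 0.30. Mertk, a relative of Axl chosen after its values were seen, read 30.5 RPKM in parental cells and 3.09 in vector control cells, with the knockouts between at 10.6 and 13.2.

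Of 29 genes for ligands of the members, 12 had a mean of at least 1 RPKM, 6 lower and 6 higher, with a median difference of 0.0058. Without overlap 3 were lower and 2 higher. Gas6, the ligand of Axl, read 16.02 and 16.7 RPKM in parental and vector control cells, 85.0 in exon 3 knockout cells and 21.3 in exon 2 knockout cells. Both knockouts were above both controls, but the exon 3 knockout stood apart, and the adjusted p was 0.202 by limma. Of the other abundant ligands, Efna1, a ligand of Epha2, differed by 0.12 and Pdgfa, a ligand of Pdgfra, by 0.33. Pdgfb and Hgf were chosen after their values were seen. Pdgfb, which encodes a ligand of both platelet-derived growth factor receptors, read 3.97, 2.28, 6.10 and 14.4 RPKM in the order parental line, vector control, exon 3 knockout, exon 2 knockout (1.37, SE 0.426, adjusted p = 0.153 by limma). Hgf, the ligand of Met, was listed at 0 in both knockouts and was below 1 RPKM in both controls.

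Downstream of the receptors, 20 of 22 adaptors and proximal effectors had a mean of at least 1 RPKM. Of these, 15 had a lower and 5 a higher group mean, with a median of -0.31. Without overlap 6 were lower, where 31.2% of tested genes were, and 2 higher, where 21.9% were. Shc1, an adaptor, read 110, 114 and 113 RPKM in parental, vector control and exon 3 knockout cells and 69.6 in exon 2 knockout cells, so 1 library stood apart. Pik3r2, a regulatory subunit of PI3K, differed by 0.22 and the phosphatase Ptpn11 by -0.18. All 14 feedback inhibitors were measured, 11 lower and 3 higher, with a median of -0.29. Without overlap 6 of them were lower and 2 higher. Between the controls, 13 of 14 were lower in vector control cells, where 36.6% of tested genes were, with a median of -0.93. At least 2-fold lower there were 6, where 5.19% of tested genes were. Dusp6, a phosphatase of ERK, read 147 RPKM in parental cells and 64.6 in vector control cells, with 67.8 and 90.3 in the knockouts. Ptpn1, a phosphatase of receptor kinases, read 39.3 and 36.8 RPKM in the controls and 48.3 and 53.0 in the knockouts, with a difference of 0.40. Errfi1, an inhibitor of the ErbB kinases, read 64.0 and 24.9 RPKM in these controls and 31.3 and 34.8 in the knockouts.

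The list of proteolytic processing held 12 genes, proteases that cleave receptors, ligands or precursors and inhibitors of such proteases (Spint1, Spint2 and Timp3). Of these 12, 8 had a mean of at least 1 RPKM, 6 lower and 2 higher, with a median of -0.79. Without overlap 4 were lower, where 31.2% of tested genes were, and 0 higher, where 21.9% were. Adam12 and Plau were chosen after their values were seen, and their knockouts lay between the controls. In the order parental line, vector control, exon 3 knockout, exon 2 knockout, Adam12 read 13.4, 0.247, 0.880 and 0.591 RPKM. Plau read 24.3, 9.38, 10.4 and 12.4 RPKM. The inhibitors among the 8 were Spint2, at 0.49, and Timp3, at -0.23. Adam9 and Adam17 were at least 2-fold lower in all 4 pairs, where 1.73% of tested genes were. Adam9 read 73.9 and 61.0 RPKM in the controls and 28.6 and 29.5 in the knockouts (-1.18, SE 0.298, adjusted p = 0.115 by limma). Adam17, a protease that sheds ligands of Egfr, read 34.9 and 43.0 RPKM in parental and vector control cells and 13.8 and 16.7 in exon 3 and exon 2 knockout cells (-1.30, SE 0.311, adjusted p = 0.105 by limma). Adam10, a protease that sheds several receptors, read 79.1, 53.1, 21.8 and 36.0 RPKM in the same order (-1.18, SE 0.349, adjusted p = 0.139 by limma). Furin, which cleaves precursor proteins, read 41.4, 35.6, 44.2 and 40.3 RPKM, and its groups overlapped. Coding GC content was 44.9% for Adam10, 46.95% for Adam17 and 51.3% for Adam9. The eighths of genes by GC content that hold them had median changes of -0.68, -0.45 and -0.039, respectively. The part of GC content in these differences was not tested.

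**Figure D4:**
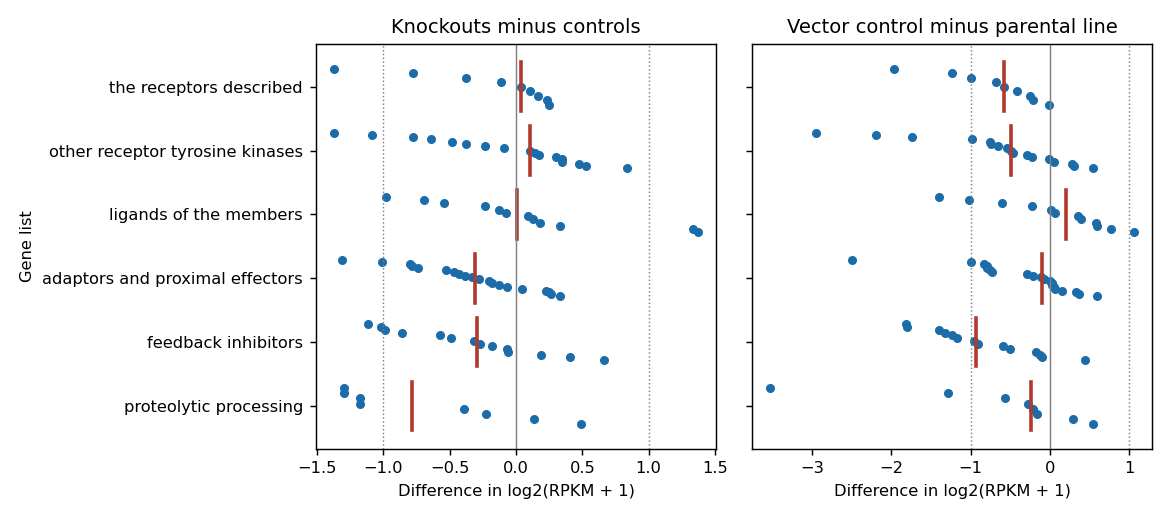
Differences in log2(RPKM + 1) for genes with a mean of at least 1 RPKM in each list, as knockouts minus controls on the left and as vector control minus parental line on the right. Each point is a gene and red bars are list medians; the feedback inhibitors have medians of -0.29 and -0.93 and the proteolytic processing genes of -0.79 and -0.24.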

How the data were processed

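RNA-seq libraries of 4 mouse mammary tumor cell lines were analysed. The authors deposited RPKM values, read numbers divided by gene length in kilobases and by the library's read total, with 1 column per library; the submitters' processing notes name CASAVA 1.8, GSNAP and GRCm38, and the gene models and counting rule are not given in the sources used here. The labels name a stranded kit and the methods another kit name without that word, so reads of overlapping genes may be shared. Whole reads were recovered from the RPKM steps for 100% of the 15405 genes above 0, within 0.001 reads, and gave the 95% Poisson intervals, which cover counting error only. Genes with a mean of at least 1 RPKM entered limma 3.58.1 (R 4.3.3) on log2(RPKM + 1), knockouts against controls, 2 libraries each, with trend and Benjamini-Hochberg adjustment over all genes; folds of low genes are understated on that scale. The limma fit was tested on simulated data with larger changes and a smaller spread than those fitted for the members. That test does not show whether changes of the members' size can be found. The named genes were the 10 members, the 3 genes of each list with the highest mean RPKM, list genes at least 2-fold apart in all 4 pairs, and the 5 genes nearest Met in pattern; others are marked where named. Members and lists were chosen with earlier results of these data known. Groups came from the sample titles, and Poisson intervals, coding GC content and motif matches were computed with Python 3.11.15. Alternatives were another pseudocount (0.1), no filter, a filter at 5 RPKM, median ratio scaling, quantile normalization, limma without trend or with a robust prior, voom on recovered reads, a GC and length correction, and leaving out each library.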

Additional observations from a re-analysis of the deposited data

How the results depend on the processing

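Of 117 member differences recomputed under the alternatives, 104 kept their direction and side of the threshold and 11 reversed. The other 2 were of Met, which passed the threshold with the robust prior. The second was without the vector control, a fit with 1 control library, so its p-value is not read here. Of the 11 that reversed, 4 came from quantile normalization and the GC and length correction. These were -0.088 and -0.036 for Axl, and -0.034 and -0.090 for Epha2, respectively. The other 7 came from leaving out 1 library: Axl, Egfr, Fgfr1 and Epha2 without the vector control, Igf1r and Pdgfrb without the parental line, and Axl without the exon 2 knockout (-0.032). Leaving out 1 library at a time gave -0.39 to 0.61 for Axl, -0.75 to 1.22 for Egfr, -0.26 to 0.32 for Epha2, -0.094 to 0.59 for Fgfr1, -0.99 to 0.24 for Igf1r and -0.32 to 0.093 for Pdgfrb. Met stayed negative, from -1.70 without the exon 2 knockout to -0.79 after the GC and length correction. In the fits without a library that sign was fixed in advance, since both knockouts of Met lay below both controls. The count of members called was 1 with the robust prior. Over all tested genes the number called was 2, against 1 with a pseudocount of 0.1, 0 with no filter, 32 with the filter at 5 RPKM, 0 with median ratio scaling, 1 with quantile normalization, 285 with the robust prior, 0 with voom, 0 with the GC and length correction, and 0 to 802 without a library. Members lower without overlap numbered 2 to 8 without a library, the 8 without the vector control, and members higher 1 to 6, the 6 without the parental line, and 0 after the GC and length correction. With 1 library left out, 40.8% to 47.3% of tested genes were lower without overlap and 31.3% to 37.8% higher. Members 2-fold apart in all remaining pairs numbered 0 to 1, and the median of the members ran from -0.36 without the vector control to 0.21 without the parental line. The cause of these changes was not tested. No paired analysis was possible because the titles carry no shared replicate numbers. With 1 library per line, a difference between groups cannot be told apart from one between lines. Where a group was left with 1 library, its spread was taken from the other group and from the trend over all genes. Depth limits Erbb3, with 10 to 29 reads.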
